A study of Mus musculus with 6 samples.

Results

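The genes described here encode the proteins of the mitochondrial ribosome whose symbols begin with Mrpl (large subunit) or Mrps (small subunit) followed by a digit. They were found by that rule among the Affymetrix probe sets whose platform annotation names a single gene. The rule took 156 of 45033 probe sets, 104 for the large and 52 for the small subunit, and these stood for 76 of 18192 genes, 47 large and 29 small. A gene with several probe sets was read by the one with the highest mean, and all 76 chosen probe sets lay at or above the median gene of the array. The 6 arrays were made from C2C12, mouse myoblasts kept as a line, which fuse into muscle fibres when serum is withdrawn. All had spent 28 h in DMEM with 2% horse serum. In 3 of them a short hairpin RNA against GFP served as the control, and 3 carried a short hairpin RNA against Prdm2, a gene for a histone H3 lysine 9 methyltransferase. The sources used here give neither the number of hairpins nor whether each culture was a pool or 1 clone.

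Mitochondrial ribosomes translate the few messages of mitochondrial DNA, which encode core subunits of the respiratory chain and of ATP synthase. Their RNA is made inside the organelle, but their proteins are all encoded in the nucleus, made in the cytosol and imported. Muscle fibres depend on oxidative metabolism, and mitochondria are built up as myoblasts differentiate. Many of these genes are known to have CpG-rich promoters without a TATA box, and NRF1, the ETS protein GABPA and YY1 are among the factors known to act on nuclear genes for mitochondrial proteins.

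To show what such promoters look like, RefSeq promoter windows of build GRCm38.p6 were matched by symbol. They run from 250 bases before to 50 bases after a start of transcription, and 67 of the 76 genes had one (73 windows in all). The last 100 bases before the start are printed for genes that the results below turn on. Capitals mark CCGGAAG, the core bound by ETS factors, in the first 4, and the NRF1 core (GCGCA, any base, then GCGC) in the next 3, each on either strand, so that a match on the opposite strand appears as its reverse complement. Mrpl23, the gene with the highest difference in the set, holds neither in its printed stretch.
Mrps27, chr13:99344686-99344785 (+ strand): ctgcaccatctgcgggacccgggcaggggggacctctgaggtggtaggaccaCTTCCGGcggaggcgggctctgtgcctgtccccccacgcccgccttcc
Mrps18a, chr17:46110904-46111003 (+ strand): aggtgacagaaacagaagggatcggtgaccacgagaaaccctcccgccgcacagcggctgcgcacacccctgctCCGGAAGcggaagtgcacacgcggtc
Mrpl51, chr6:125192100-125192199 (+ strand): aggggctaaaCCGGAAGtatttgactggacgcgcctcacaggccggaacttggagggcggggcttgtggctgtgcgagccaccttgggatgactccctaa
Mrpl3, chr9:105053168-105053267 (+ strand): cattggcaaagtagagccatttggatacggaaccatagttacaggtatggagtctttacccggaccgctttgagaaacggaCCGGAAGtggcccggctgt
Mrpl12, chr11:120484537-120484636 (+ strand): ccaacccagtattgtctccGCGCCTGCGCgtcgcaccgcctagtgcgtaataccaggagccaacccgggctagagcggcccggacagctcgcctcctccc
Mrpl44, chr1:79775918-79776017 (+ strand): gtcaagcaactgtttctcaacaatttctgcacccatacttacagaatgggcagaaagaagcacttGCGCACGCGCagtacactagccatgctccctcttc
Mrpl17, chr7:105811088-105811187 (- strand): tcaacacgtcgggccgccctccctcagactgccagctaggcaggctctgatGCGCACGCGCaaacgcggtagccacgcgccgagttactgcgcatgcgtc
Mrpl23, chr7:142532932-142533031 (+ strand): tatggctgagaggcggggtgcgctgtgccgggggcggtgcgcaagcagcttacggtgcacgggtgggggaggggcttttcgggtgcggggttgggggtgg

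Both strands of all windows were searched for 7 motifs. The NRF1 core was in 16.4% of the 73 member windows, in 7.43% of the 18108 windows of genes measured on the array and in 4.60% of all 32851 windows. The ETS core was in 34.2%, 13.0% and 8.86% of them, in the same order. ATGGCGGC, a YY1 core that contains a start codon, was in 15.1%, 3.45% and 2.24%, and 10 of its 11 matches in the members lay after the start of transcription. At least 1 of the 3 was in 39 member windows (53.4%), against 21.3% for genes on the array and 14.1% for all windows. GGGCGG (SP family) was in 53.4% against 52.3% on the array, CCAAT (NF-Y) in 39.7% against 37.4%, the E-box CACGTG (MYC) in 9.59% against 8.73%, and TATAAA in 6.85% against 9.76%. These shares describe letters in a window, and no binding was measured. The median GC content was 58.7% in the member windows and 58.3% on the array, with a median of 21 and 16 CpG.

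A start on the opposite strand within 1000 bases, pointing away (a head-to-head neighbour), was found for 23 of the 67 genes (34.3%), against 10.2% of protein-coding genes on the array. It was found for 16 of 41 large-subunit and 7 of 26 small-subunit genes. Mrpl46 and Mrps11, which encode proteins of different subunits, start 42 bases apart. Mrps27 starts 108 bases from Ptcd2, a gene for a pentatricopeptide protein of mitochondrial RNA processing. Mrps12 starts 147 bases from Sars2, which encodes the mitochondrial seryl-tRNA synthetase, and Mrpl43 starts 116 bases from Twnk, which encodes the mitochondrial DNA helicase.

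**Figure D1:**
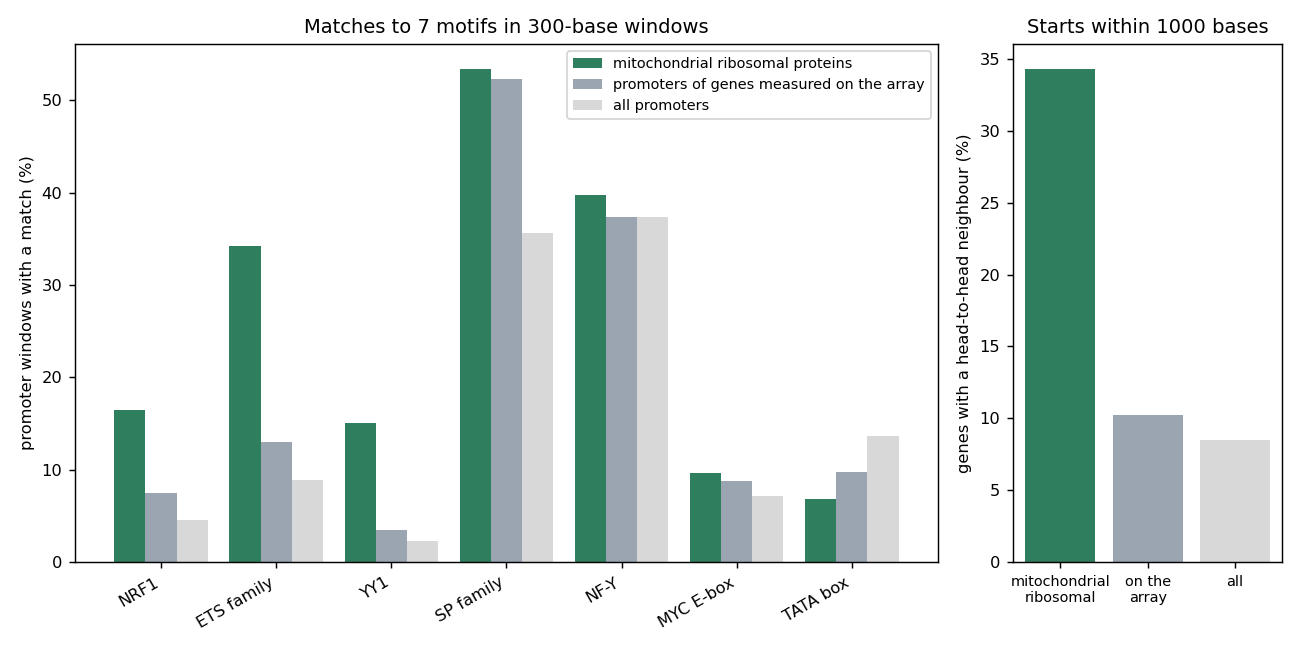
The left panel shows the percentage of promoter windows with a match to each of 7 motifs, for the mitochondrial ribosomal proteins, genes on the array and all windows, and the right panel the percentage of protein-coding genes with a head-to-head neighbour in the same 3 sets. The ETS core stands at 34.2%, 13.0% and 8.86%, and head-to-head neighbours at 34.3%, 10.2% and 8.48%.

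Expression is given as log2(intensity + 16) after quantile normalization, a scale with a floor of 4, and differences are log2 fold changes, knockdown minus control, on that scale. The median deposited intensity of an array was 10.7 to 11.4, and the chosen probe sets of the members read 38.2 to 694. Precision is limited by the number of arrays. The targeted gene checks the labels only weakly. Prdm2 read 6.19, 6.42 and 5.94 on control arrays 1, 2 and 3 and 6.67, 6.32 and 6.02 on the arrays labelled knockdown, a difference of 0.15 (SE 0.19). The reading was thus not lower on the arrays labelled knockdown, so each direction below follows the labels alone. Control 2 and knockdown 2 were also far more alike than any other pair. Over the 4548 genes with the highest means, the scaled median absolute deviation of their differences was 0.068. This was the smallest of 15 pairs, with 0.187 in the next. The main comparison is therefore given with and without control 2 and knockdown 2.

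No mitochondrial ribosomal protein gene passed an adjusted p of 0.05 between knockdown and control, but most stood slightly lower on the knockdown arrays. Of the 76, 61 had a difference below 0 (80.3%), against 51.2% of all genes and 53.7% of genes at or above the median gene. In the large subunit 38 of 47 stood lower, with a median difference of -0.06 and a range of -0.24 to 0.20. In the small subunit it was 23 of 29, with a median of -0.09 and a range of -0.37 to 0.11. In limma's moderated test 0 of 18192 genes were called (percent called 0), so the lack of calls is shared by the whole array. In simulated data the same test called 0 of 200 genes changed by 0.5, more than any member differed. Those 200 were drawn from genes at or above the median gene. The median range over the arrays was 0.46 for such genes and 0.32 for the members, so the simulation is only a rough guide to the members. With no gene called on the whole array, the lack of called members says little about them. At an unadjusted p of 0.05, 1 member passed, Mrps27, against 3.3% of all genes (1.19% higher and 2.11% lower). The 95% interval lay within -0.5 and 0.5 for 66 of the 76 genes, and the outermost bounds were -0.66 and 0.53.

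**Figure D2:**
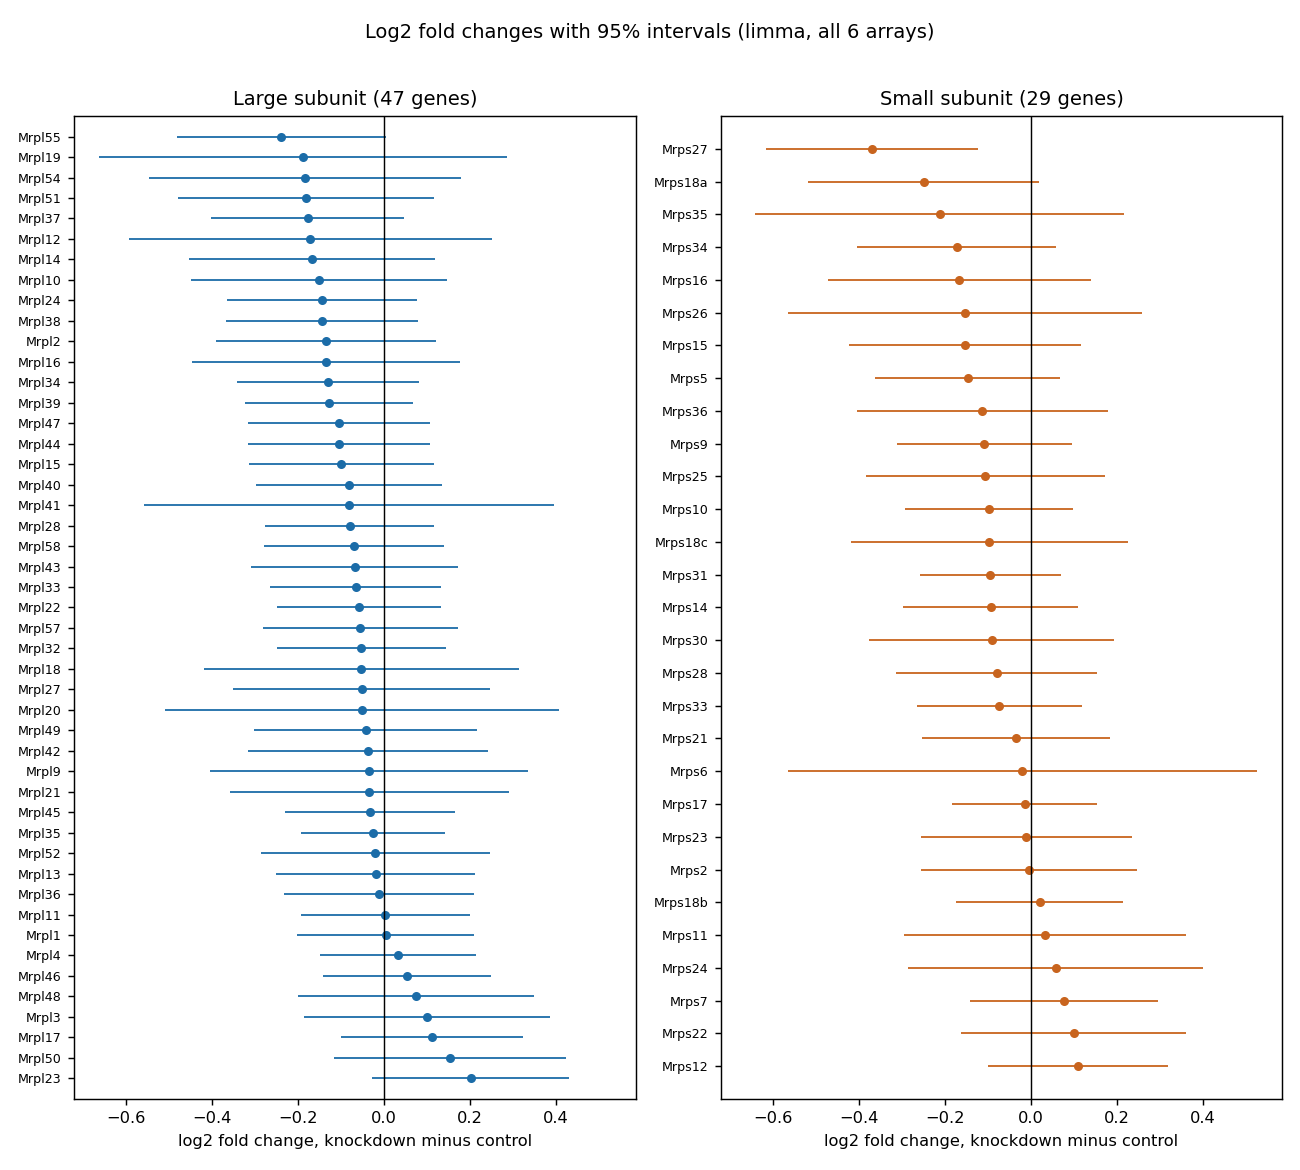
Each point is the log2 fold change of 1 gene, knockdown minus control, and each line its 95% interval from limma over 6 arrays, with large-subunit genes on the left and small-subunit genes on the right. Most points lie left of 0, and Mrps27 (-0.37) is the only gene whose interval does not reach 0.

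The size of this shift moved with single arrays. Without control 3 the median of the large subunit was -0.03, with 30 of 47 genes lower, and without control 1 that of the small subunit was -0.05, with 22 of 29 lower. Without control 2, limma called 291 genes (1.6%, 163 higher and 128 lower), of which 0 were members, and the lowest adjusted p of a member was 0.17. In that fit 13 members passed an unadjusted p of 0.05 in limma's test, 12 of them lower and Mrpl3 higher. Over all genes 13.4% passed (6.57% higher and 6.82% lower). Of the 9096 genes at or above the median gene, where all members lie, 978 passed higher and 1006 lower. The medians were then -0.10 for the large and -0.13 for the small subunit, where the median over all genes was -0.01. Without the pair of arrays numbered 2, limma called 120 genes (0.66%) and again no member, with medians of -0.12 in both subunits. In that fit the lowest adjusted p of a member was 0.17. With only knockdown 2 left out, limma called 0 genes (percent called 0). Then 53 of 76 members stood lower, with medians of -0.04 for the large and -0.06 for the small subunit.

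The arrays differed from one another as well as by group. The mean over the 47 large-subunit genes was 7.86, 7.72 and 7.85 on control arrays 1, 2 and 3 and 7.73, 7.73 and 7.79 on the knockdown arrays. The mean over the 29 small-subunit genes was 7.68, 7.52 and 7.64 on the control and 7.52, 7.54 and 7.56 on the knockdown arrays. In both subunits controls 1 and 3 were the 2 highest arrays, and control 2 lay below at least 2 of the knockdown arrays, so the groups overlapped. The mean over all genes lay between 5.80 and 5.84, but quantile normalization holds it nearly level, so it is no yardstick for the members. Control 1 held the highest value for 31 of 76 members (40.8%, against 23.9% of all genes) and control 3 for 21 (27.6% against 13.9%). Knockdown 1 held the lowest for 23 (30.3% against 22.4%) and control 2 for 19 of 76 (18.2% of all genes).

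**Figure D3:**
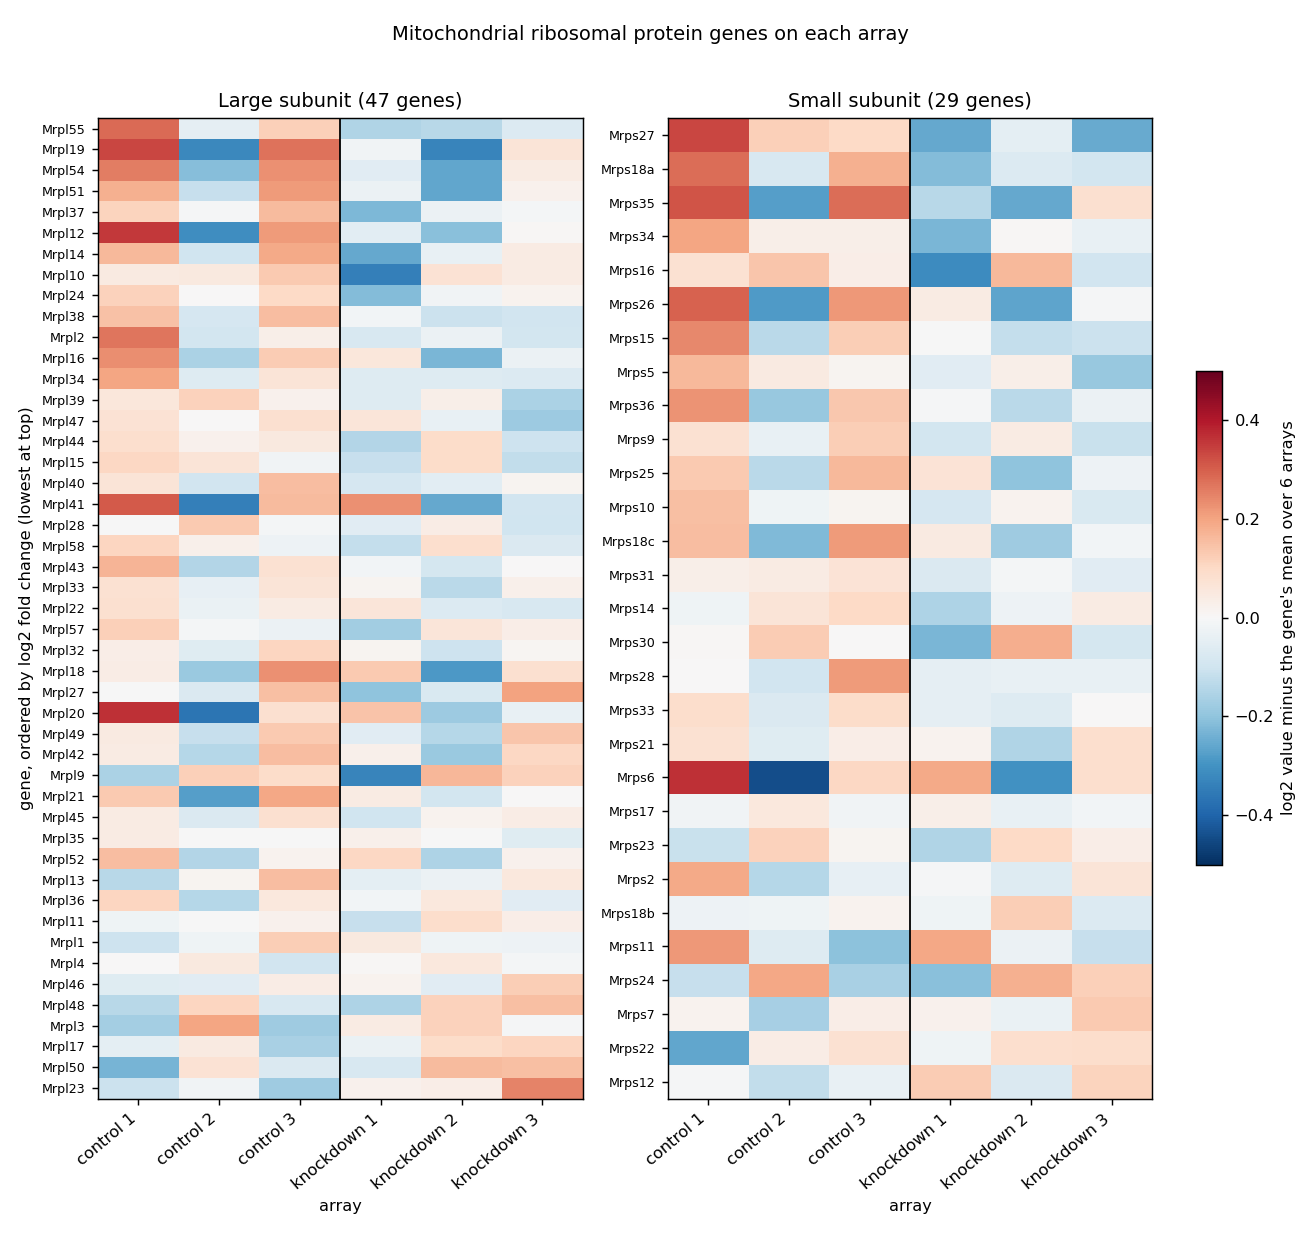
Each cell is the log2 value of 1 gene on 1 array minus that gene's mean over the 6 arrays (colour scale from -0.5 to 0.5), with the 47 large-subunit and 29 small-subunit genes ordered by log2 fold change. Controls 1 and 3 hold the highest value for 31 and 21 of the 76 genes, and the columns of control 2 and knockdown 2 resemble each other.

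Arrays that share a replicate number deviated alike from their group means over all genes, least so in number 1 (correlation 0.34). By the scaled deviation between arrays, control 1 was nearer to control 3 (0.209) than to knockdown 1 (0.306). Knockdown 1 was nearest to knockdown 3 (0.187). The difference was also read within each number, with this limit for number 1. Within number 1 the knockdown array was lower for 62 of 76 members, with a median of -0.13 (55.3% of all genes, median -0.02). Within number 2 it was lower for 31 of 76, with a median of 0.01 (49.4% of all genes). Within number 3 it was lower for 54, with a median of -0.09 (48.1% of all genes). The lower position thus appeared in numbers 1 and 3 and not in number 2. The arrays of number 2 were nearly alike (scaled deviation 0.068), so that pair could show little of a shift in any gene. Lower in every number were 21 members (27.6%), against 16.5% of all genes, and higher in every number 8 (10.5%), against 14.5%. Among genes at or above the median gene, 19.4% were lower and 14.8% higher in every number. Of the respiratory chain and ATP synthase subunits, 37.5% were lower and 3.75% higher in every number. These counts also rest on the sign within number 2, where differences were small. With the replicate number as a block, limma again called 0 genes (percent called 0), and 3 members passed an unadjusted p of 0.05, against 9.01% of all genes (4.45% higher and 4.56% lower): Mrpl51, Mrpl55 and Mrps27, all lower, with a lowest adjusted p of 0.55.

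**Figure D4:**
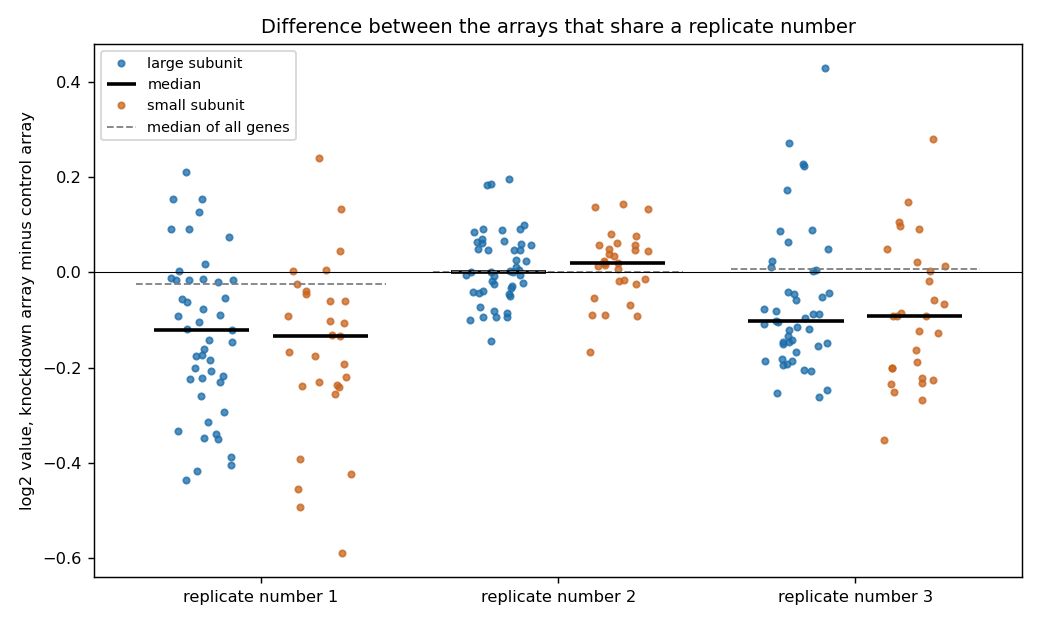
Each point is the log2 value of 1 gene on the knockdown array minus that on the control array with the same replicate number, for the large and small subunit, with the median of each as a black bar and that of all genes as a dashed line. The medians stand at -0.12 and -0.13 in number 1, 0.00 and 0.02 in number 2, and -0.10 and -0.09 in number 3.

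Across the 6 arrays a member moved over a median range of 0.32, against 0.36 for all genes and 0.46 for genes at or above the median gene. Mrps17, a core small-subunit protein that binds ribosomal RNA, had the narrowest range at 0.09, and the range was under 0.25 for 21 genes. The widest were Mrps6 (0.81), Mrpl20 (0.73), Mrpl12 and Mrpl19 (both 0.66) and Mrpl41 (0.65). In these 5 genes number 2 was the lowest array of each group. Both arrays numbered 2 lay below the 4 others for 27 members (35.5%), against 19.3% of all genes, and above them for 8 (10.5%), against 18.1%. Among genes at or above the median gene these shares were 20.9% below and 24.2% above. Mrps6 averaged 8.03 on the arrays numbered 2 and 8.59 on the others, and 9 members were over 0.3 lower there.

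Mrps27 encodes a small-subunit protein with pentatricopeptide repeats, which occur in proteins that bind RNA. It read 6.57, 6.35 and 6.34 on the control arrays and 5.98, 6.19 and 5.99 on the knockdown arrays. All control values were above all knockdown values. Its difference of -0.37 (SE 0.10, 95% interval -0.61 to -0.12) was the lowest of the set, with a limma adjusted p of 1.00 (unadjusted 0.0097). With the replicate block and both arrays numbered 2 left out it was -0.47, with a limma adjusted p of 0.073 in a fit of only 2 arrays a group. Its head-to-head neighbour Ptcd2 read 7.33, 6.80 and 7.19 on the control and 6.93, 6.74 and 7.01 on the knockdown arrays, a difference of -0.21 (SE 0.15), with overlapping groups.

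Groups that did not overlap were found for 6 members: Mrpl23 was higher, and Mrpl37, Mrpl55, Mrps27, Mrps31 and Mrps34 were lower on the knockdown arrays. Over all genes 2.93% did not overlap with knockdown higher and 4.24% with knockdown lower, and 1 and 5 of 76 are read against these shares. Mrpl55, a large-subunit protein, read 6.18, 5.85 and 6.01 against 5.74, 5.76 and 5.83 (-0.24, SE 0.10). Mrps34, a small-subunit protein without a bacterial counterpart, read 8.13, 7.96 and 7.96 against 7.71, 7.94 and 7.90 (-0.17, SE 0.10). In all of the 6 genes but Mrps27 the nearest control and knockdown values were within 0.1 of each other, closest in Mrpl37 (7.302 and 7.300). Mrpl37 read 7.42, 7.30 and 7.47 against 7.08, 7.28 and 7.30 (-0.18, SE 0.09), and Mrps31 differed by -0.09 (SE 0.07). Mrpl20, Mrpl37 and Mrps31 fall outside the rule for named genes and were chosen after their values were seen. Also outside that rule are Mrpl2, Mrpl43 and Mrpl46, named with their head-to-head neighbours, and Mrps36 and Mrpl58, named for their products.

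Among large-subunit proteins with a bacterial counterpart, 23 of 29 stood lower, with a median of -0.05. Mrpl12 forms the flexible stalk that recruits translation factors. It read 8.93, 8.27 and 8.79 on the control and 8.53, 8.37 and 8.58 on the knockdown arrays, a difference of -0.17 (SE 0.18) that was -0.37 (SE 0.11) without control 2. Controls 1 and 3 were its highest arrays and control 2 the lowest of all. Mrpl19 was likewise low in number 2 of both groups, with 6.73, 6.07 and 6.67 against 6.38, 6.07 and 6.46 (-0.19, SE 0.20).

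Mrpl23, which lies by the exit of the peptide tunnel, had the highest difference of the set, with 8.51, 8.60 and 8.43 against 8.63, 8.65 and 8.86 (0.20, SE 0.10, 95% interval -0.03 to 0.43). Mrpl3, which reaches towards the peptidyl transferase centre, read 8.00, 8.36 and 7.99 against 8.21, 8.28 and 8.16 (0.10, SE 0.12). Its control 2 was the highest of the 6 arrays, and it stood 0.22 higher on the knockdown arrays without that array. Mrpl17 differed by 0.11 (SE 0.09) and Mrpl15 by -0.10 (SE 0.09). Mrpl11, at the base of the stalk, and Mrpl1, next to the exit site for transfer RNA, differed by 0.00 (SE 0.08 and 0.09).

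Of the large-subunit proteins found only in mitochondria, 14 of 17 stood lower, with a median of -0.07. Mrpl51 read 9.40, 9.11 and 9.44 against 9.20, 8.97 and 9.25 (-0.18, SE 0.12). Each knockdown array was below the control of its number, yet the groups overlapped. Mrpl54 differed by -0.18 (SE 0.15), Mrpl44, a protein of the ribonuclease III fold, by -0.10 (SE 0.09), Mrpl41 by -0.08 (SE 0.20), Mrpl49 by -0.04 (SE 0.11), Mrpl52 by -0.02 (SE 0.11) and Mrpl50 by 0.15 (SE 0.11).

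In the small subunit, proteins with a bacterial counterpart stood lower in 12 of 16 cases, with a median of -0.06. Mrps12, a protein of the decoding centre, read 7.85, 7.73 and 7.82 against 7.98, 7.78 and 7.97 (0.11, SE 0.09), the highest difference in its subunit. Mrps16 read 8.20, 8.26 and 8.15 against 7.80, 8.28 and 8.02 (-0.17, SE 0.13), with knockdown 1 the lowest array. Mrps6 read 8.77, 7.96 and 8.50 against 8.59, 8.10 and 8.48 (-0.02, SE 0.23), so that number 2 was low in both groups. Mrps5, at the entry channel for messenger RNA, differed by -0.15 (SE 0.09), Mrps9 by -0.11 (SE 0.09), Mrps14 by -0.09 (SE 0.08), Mrps17 by -0.01 (SE 0.07), Mrps11 by 0.03 (SE 0.14), Mrps24 by 0.06 (SE 0.14) and Mrps7 by 0.08 (SE 0.09).

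Small-subunit proteins found only in mitochondria stood lower in 8 of 10 cases, with a median of -0.10. Mrps35 read 7.34, 6.75 and 7.31 against 6.89, 6.78 and 7.11 (-0.21, SE 0.18), with control 2 the lowest array. Mrps22 read 7.45, 7.75 and 7.79 against 7.69, 7.80 and 7.80 (0.10, SE 0.11), and its control 1 was the lowest array. The 3 forms related to bacterial S18 occupy different places in the ribosome. Mrps18a read 7.84, 7.48 and 7.74 against 7.34, 7.49 and 7.47 (-0.25, SE 0.11), with control 2 among the knockdown values, and Mrps18b differed by 0.02 (SE 0.08). Mrps18a and Mrps30 (-0.09, SE 0.12) are placed in the large subunit by structure. With both moved there, the medians were -0.07 and -0.09. The rule also took Mrps36 (-0.11), whose product is now placed in the oxoglutarate dehydrogenase complex, and Mrpl58 (-0.07), a peptidyl-tRNA hydrolase built into the large subunit.

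**Figure D5:**
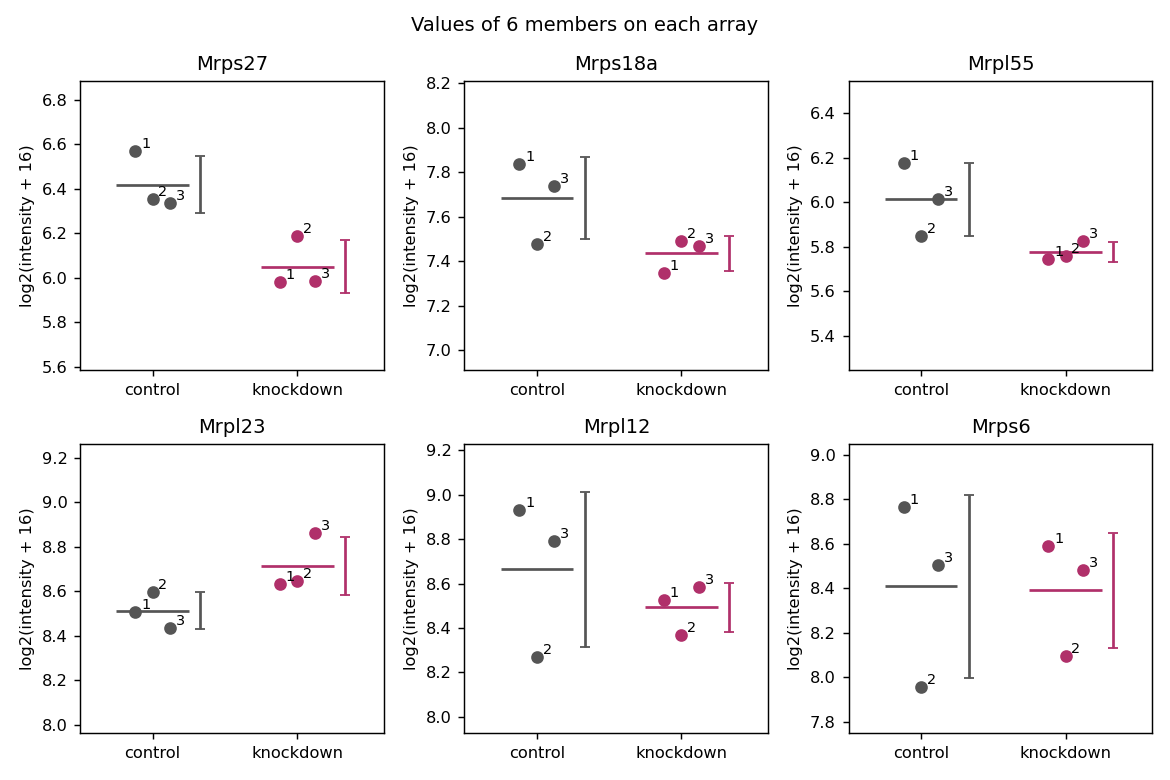
Each panel shows log2(intensity + 16) of 1 gene on the 3 control and 3 knockdown arrays, labelled by replicate number, with a horizontal bar at the group mean and an error bar of 1 SD to each side (n = 3). In Mrps27 the control values of 6.34 to 6.57 lie above the knockdown values of 5.98 to 6.19, while in Mrps6 and Mrpl12 number 2 is the lowest of each group.

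Read probe set by probe set, 115 of 156 stood lower (73.7%), against 22528 of all 45033. None was called by limma (percent called 0), and 7 passed an unadjusted p of 0.05, against 2.94% of all probe sets. Among probe sets at or above the median gene, 4 of 112 passed, against 770 of 15940 over the array. Of the 76 genes, 34 had 1 probe set, and 26 had 2 or more at or above the median gene, among which the sign differed for 10. The widest gap was in Mrpl51, with -0.18 and 0.12, followed by Mrps9, with -0.19 and 0.02, and Mrpl49, with -0.04 and 0.13. Mrpl15 had the most probe sets, 8, and its 4 brightest differed by -0.13, -0.13, -0.10 and -0.10.

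Genes with and without a motif are set side by side, with no test. Of the 12 genes with the NRF1 core, 11 stood lower, with a median of -0.08, and of the 55 without it 42, with a median of -0.07. With the ETS core it was 19 of 25, median -0.05, against 34 of 42 without, median -0.08. With the SP motif 23 of 34 stood lower, against 30 of 33 without it. For NF-Y it was 22 of 26 against 31 of 41, and for YY1 9 of 11 against 44 of 56. For the E-box it was 5 of 5 against 48 of 62, and for TATAAA 2 of 5 against 51 of 62. Among the printed promoters, Mrpl12 and Mrpl44 share the NRF1 core with Mrpl17, the only NRF1 carrier that stood higher (0.11). Mrps27 shares the ETS core with Mrpl3. Of the 23 measured head-to-head neighbours 12 stood lower, with a median of -0.02. These neighbours include the members Mrpl46 and Mrps11, each the neighbour of the other and both higher.

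Other genes of the pathway were read from lists by function, and with all 6 arrays no gene of them was called (percent called 0 over all genes). Mitoribosome proteins under other symbols numbered 4, with a median of -0.08. Of these, Gadd45gip1 differed by -0.27 (SE 0.18), Ptcd3 by -0.09 (SE 0.26), Dap3, a GTP-binding small-subunit protein, by -0.06 (SE 0.10), and Chchd1 by less than 0.01 (SE 0.08). Translation factors of the organelle stood lower in 12 of 14 cases, median -0.04, with Tufm, the elongation factor that carries aminoacyl-tRNA, at 0.05 and Mtfmt, which formylates the initiator tRNA, at -0.20 (SE 0.12). Assembly and RNA modification factors stood lower in 18 of 28 cases, median -0.04, from Mterf4 at -0.16 (SE 0.10) to Ngrn at 0.21 (SE 0.14).

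Mitochondrial aminoacyl-tRNA synthetases stood lower in 11 of 19 cases, median -0.04, with Tars2 at -0.23 (SE 0.12) and Iars2 at 0.11. Genes for transcription and upkeep of mitochondrial DNA stood lower in 4 of 9 cases, median 0.08, with Polg, the DNA polymerase, at 0.27 (SE 0.12) and Polrmt, the RNA polymerase, at -0.10 (SE 0.14). Of 10 regulators of mitochondrial biogenesis, 5 stood lower, median 0.02. Ppargc1b, a coactivator, read 7.87, 6.94 and 7.60 against 7.23, 6.95 and 7.01 (-0.41, SE 0.23), with number 2 alike in both groups. With both arrays numbered 2 left out and the block, limma gave Ppargc1b -0.61 (SE 0.09) with an adjusted p of 0.026. That fit called 721 genes (3.96%) and no member. It had only 2 arrays a group, so its SE leaned on the spread of all genes. It also dropped the pair in which Ppargc1b read 6.94 and 6.95. The nuclear receptor Esrra, a partner of Ppargc1b, differed by -0.23 (SE 0.17). Without control 2 the medians of these 6 lists lay between -0.22, for mitoribosome proteins under other symbols, and 0.04, for transcription and upkeep of mitochondrial DNA.

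Of 80 respiratory chain and ATP synthase subunits, 61 stood lower (76.3%), with a median of -0.09, and without control 2 it was 58, with a median of -0.10. In that fit limma called 1 of them, Cox7a1, a muscle form of a cytochrome c oxidase subunit, named after its values were seen. It read 5.78, 5.20 and 5.72 against 5.18, 5.10 and 5.03 (-0.47, SE 0.16, limma adjusted p 1.00), and -0.65 (SE 0.09, adjusted p 0.034) without control 2. In the fit of 2 arrays a group, without both arrays numbered 2 and with the block, its limma adjusted p was 0.024. Mitochondrial import genes (Tomm and Timm) stood lower in 16 of 23 cases, median -0.04. Cytosolic ribosomal proteins stood lower in 19 of 47 cases (40.4%), median 0.02. These lists share the arrays with the members, and the differences between lists were not tested.

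Marker lists give the state of the cultures, and none of their genes was called by limma with all 6 arrays. The 11 muscle markers averaged 9.69 to 11.9 over the arrays, all above the median gene, and their list mean was 10.63, 10.84 and 10.89 on the control and 10.88, 10.85 and 10.94 on the knockdown arrays. On the knockdown arrays 9 of the 11 stood higher, with a median difference of 0.10. Control 1, the array with the highest mean for the members, was the lowest for 8 of the 11. The list mean of 10 genes of cycling cells was 8.89, 8.26 and 8.68 on the control and 8.71, 8.24 and 8.64 on the knockdown arrays, lowest in number 2 in both groups, as for Mrps6 and Mrpl12. Of these 10 genes 7 stood lower on the knockdown arrays, with a median of -0.11 (-0.21 without control 2), Mcm7 at -0.33 (SE 0.31) and Mki67 at 0.30 (SE 0.16). The part of differentiation or cycling in the members' values was not tested. In bulk RNA fewer cells of a type and less RNA per cell cannot be told apart. Endothelial markers (4, means 4.10 to 4.53) and adipocyte markers (3, 4.07 to 4.18) lay near the floor, as did Ptprc, Cd68 and Itgam of the 5 macrophage markers, while Csf1r averaged 6.61 and Adgre1 5.43.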

How the data were processed

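The authors deposited linear probe set intensities of 6 Affymetrix mouse arrays. Per the labels' protocols, total RNA was extracted with Trizol and biotinylated cRNA was made from 8 ug. GCOS and PLIER are named, without version or role, per the submitters' processing notes. Of 45101 probe sets, 64 controls and 4 with a misplaced Entrez number were left out. The platform annotation gave 34941 probe sets 1 gene, 932 several and 9160 none.

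Here 16 was added before log2, arrays were quantile normalized, and each gene was read by its brightest single-gene probe set. The comparison of knockdown with control used lmFit and eBayes of limma 3.58.1, run under R 4.3.3 and two-sided. Benjamini-Hochberg adjustment ran over 18192 genes with a threshold of 0.05. On simulated data with 200 genes changed, it called 0% of them at a log2 change of 0.5, 62% at 1 and 88% at 2. Deviations from the group means correlated at 0.34, 0.59 and 0.66 between arrays with the same replicate number (1, 2 and 3). The deviations within a group are tied to one another, so the likeness of the arrays numbered 2 adds to the other correlations. The numbers were taken as pairs from the data, while the labels call them biological replicates. Nothing says how separate the cultures were, and p-values then measure only the spread between these samples. Alternatives covered scaling, offset, filter, probe set rule, block and arrays left out. The named genes were core and structurally distinct members, those with the brightest and dimmest probe sets, the outermost differences and the widest gaps between probe sets. The members and lists were chosen with earlier results of these data known.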

Additional observations from a re-analysis of the deposited data

How the results depend on the processing

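Under 17 alternatives no mitochondrial ribosomal protein gene was called, and between 53 and 64 of the 76 stood lower (115 of 156 with probe sets read separately). The count over all genes rose from 0 to 291 without control replicate 2 (range 0 to 291 when each array was left out). It rose to 120 without both arrays numbered 2, and to 721 when the replicate block was added to that. Both of the latter fits had only 2 arrays a group, and the cause of the rises was not tested. With the replicate block on all 6 arrays the count was 0. The median of the large subunit ranged from -0.12 to -0.03. That of the small subunit was -0.05 with all probe sets separately, and ranged from -0.13 to -0.05 when single arrays were left out, highest (-0.047) without control replicate 1.

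Of 33 named genes, 14 changed sign in at least 1 alternative, from Mrps14 (-0.09) to Mrpl17 (0.11) on all 6 arrays, and the cause was not tested. With the deposited scaling Mrpl1 was at -0.014, Mrpl11 at -0.022 and Mrps18b at -0.0022. With median centring they were at -0.016, -0.024 and -0.0040. With the mean of the probe sets Mrpl1 was at -0.075, Mrpl11 at -0.0011, Mrpl17 at -0.010, Mrpl49 at 0.042 and Mrps14 at 0.021. Without both arrays numbered 2, with and without the block, Mrpl11 was at -0.041, Mrps17 at 0.024 and Mrps18b at -0.041. Leaving out single arrays gave ranges of -0.048 to 0.066 for Mrpl1, -0.040 to 0.062 for Mrpl11, -0.27 to 0.052 for Mrpl41, -0.12 to 0.019 for Mrpl49, -0.097 to 0.053 for Mrpl52, -0.061 to 0.15 for Mrps11, -0.032 to 0.0087 for Mrps17, -0.036 to 0.060 for Mrps18b, -0.0058 to 0.16 for Mrps22, -0.016 to 0.18 for Mrps24, -0.20 to 0.0013 for Mrps30 and -0.24 to 0.16 for Mrps6. With 3 arrays a group, the 95% interval of the main comparison included 0 for every member but Mrps27.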

Other observations

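Probe sets that name a mitochondrial ribosomal protein together with another gene were left out of the 76. The one shared by Nme3 and Mrps34 read 5.94, 5.43 and 5.85 on the control and 5.32, 5.49 and 5.58 on the knockdown arrays, a difference of -0.28 (SE 0.15). The one shared by Ccdc142 and Mrpl53 read 8.64, 8.45 and 8.65 against 8.46, 8.43 and 8.44 (-0.14, SE 0.08), and the groups overlapped. Both probe sets shared by Gm6238 and Mrpl30 differed by 0.04.

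Klc4, a kinesin light chain gene that starts head to head with Mrpl2 at 141 bases, differed by -0.41 (SE 0.13), while Mrpl2 stood at -0.13 (SE 0.11). Gatb, a subunit of the amidotransferase that completes mitochondrial glutaminyl-tRNA, read 5.22, 4.97 and 5.20 on the control and 4.67, 4.98 and 4.55 on the knockdown arrays (-0.40, SE 0.14). It was called by limma only with both arrays numbered 2 left out and the replicate block (-0.60, SE 0.10, adjusted p 0.028), a fit of 2 arrays a group. Its level lay below the median gene. These genes were chosen after their values were seen.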
